A study of Mus musculus with 8 samples.

Results

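The genes described here are 34 genes of the interferon and inflammatory response, out of 21634 genes with a position in the annotation used. They were taken as a fixed list of names, and for each of them every called peak was collected within 1 kb of either end of the gene (its promoter windows) and from 20 kb below to 20 kb above the gene body (its gene window). By role they are 4 transcription factors of the interferon response (Stat2, Irf1, Irf7, Irf9), 15 antiviral and interferon-induced effectors (Isg15, Ifit1, Ifit2, Ifit3, Rsad2, Oasl2, Mx1, Mx2, Bst2, Usp18, Ifih1, Ifi44, Xaf1, Gbp2, Cxcl10), 7 NF-κB subunits and inhibitors (Nfkb1, Nfkb2, Rel, Rela, Relb, Nfkbia, Tnfaip3), 3 cytokines (Tnf, Il1b, Il6), and 5 receptors, adaptors and sensors (Il1r1, Tlr2, Tlr4, Myd88, Nlrp3). Mx1 and Mx2 are annotated as transcribed pseudogenes in this reference, which is of the C57BL/6J strain.

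Histone marks were mapped by CUT&RUN, which releases antibody-marked chromatin with a tethered nuclease, in haematopoietic stem cells (HSCs) of C57BL/6 mice. The cells were sorted from bone marrow as Lin- cKit+ Sca1+ CD48- CD150+, at 7500 per assay, from pools of 4 or 5 mice aged about 10 months. RXRKO cells lacked both retinoid X receptor genes, Rxra and Rxrb, through Vav-Cre, a recombinase active across blood lineages (genotype VavCre+ with RxRa delta/delta and RxRb delta/delta). WT cells carried the floxed alleles (Rxrab fl/fl). The sample labels give the WT cells as VavCre+ and the design text gives them without Cre, so a difference between the genotypes may include one in Cre. H3K4me1, found at enhancers and around promoters, had 2 libraries per genotype. H3K4me3, found at promoters, and H3K27ac, found at active promoters and enhancers, had 1 library per genotype and so allow no test.

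Interferons bind surface receptors that activate STAT2, which joins IRF9 in a complex that binds interferon-stimulated response elements in the promoters of antiviral genes. Toll-like receptors and the receptors for interleukin 1 and tumour necrosis factor instead release NF-κB dimers from their inhibitors, and these dimers bind kappa B sites at cytokine and feedback genes. HSCs are known to respond to both kinds of signal, which can bring them out of quiescence.

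The 8 peak lists held 147698 to 165128 peaks for H3K4me1, 47835 (WT) and 58136 (RXRKO) for H3K4me3, and 74287 (WT) and 64849 (RXRKO) for H3K27ac. The lists carry no read totals, so the depth is unknown. RXRKO H3K4me1 replicate 2 covered the most sequence, 133.3 Mb against 109.8 to 117.8 Mb in the other H3K4me1 libraries. A run tag in the names of the peaks was shared by the replicate 1 H3K4me1 libraries of both genotypes, and another by the remaining 6 libraries, so each run holds both genotypes. Among HSC markers, 10 of 10 carried H3K4me3 at the promoter in both genotypes. Among granulocyte and monocyte markers, 1 of 9 carried it in both (Cd14), 1 in RXRKO only (Cx3cr1) and 7 in neither. It was carried in both genotypes by 4 of 6 erythroid and megakaryocyte markers, 4 of 5 stromal and endothelial markers, 1 of 5 B cell markers and 1 of 5 T cell markers. Erythroid and megakaryocyte (Hbb-bt), B cell (Cd79a) and T cell (Lck) markers also had 1 each in RXRKO only (1.46% of all genes). H3K27ac was called in both genotypes at 6 of 10 HSC markers, in WT only at 1 (Hoxb5) and in neither at 3 (Hlf, Mecom and Gata2). For the other groups, in the order above, it was called in both at 2 of 9, 4 of 6, 3 of 5, 1 of 5 and 2 of 5. In a sorted but mixed sample, fewer cells carrying a mark and less mark per cell cannot be told apart.

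Promoter sequences are shown first for 4 interferon-induced effectors, because their start regions hold the element that gives the group its name. The sequences run from 250 bases before to 50 bases after the RefSeq start site (GRCm38.p6), 5′ to 3′ on the strand of the gene, and capitals mark the core of the interferon-stimulated response element (GAAA, any 2 bases, GAAA), read on either strand. Isg15, a ubiquitin-like modifier, lies at chr4:156200769-156201068 (minus strand), and its cores overlap into 1 run. Rsad2, the antiviral enzyme viperin, lies at chr12:26456403-26456702 (minus strand). Ifit3, which binds in complexes that detect foreign RNA, lies at chr19:34583279-34583578 (plus strand), and Cxcl10, a chemokine for T cells, at chr5:92348840-92349139 (minus strand).
Isg15: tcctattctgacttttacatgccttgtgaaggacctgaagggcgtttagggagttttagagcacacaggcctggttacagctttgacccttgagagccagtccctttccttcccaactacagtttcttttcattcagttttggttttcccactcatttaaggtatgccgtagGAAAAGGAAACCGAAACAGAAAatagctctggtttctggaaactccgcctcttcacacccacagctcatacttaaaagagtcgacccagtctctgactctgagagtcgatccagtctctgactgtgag
Rsad2: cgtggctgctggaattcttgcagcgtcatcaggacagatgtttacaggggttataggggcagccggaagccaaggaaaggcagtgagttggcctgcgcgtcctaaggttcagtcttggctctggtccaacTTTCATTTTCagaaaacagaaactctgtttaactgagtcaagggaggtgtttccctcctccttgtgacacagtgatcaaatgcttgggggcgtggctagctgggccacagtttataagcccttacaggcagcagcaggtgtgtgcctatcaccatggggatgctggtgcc
Ifit3: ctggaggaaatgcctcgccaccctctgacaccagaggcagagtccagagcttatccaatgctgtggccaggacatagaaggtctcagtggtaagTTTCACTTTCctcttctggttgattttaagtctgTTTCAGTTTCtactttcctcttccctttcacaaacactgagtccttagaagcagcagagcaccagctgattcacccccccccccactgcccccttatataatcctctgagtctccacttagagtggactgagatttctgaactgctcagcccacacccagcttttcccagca
Cxcl10: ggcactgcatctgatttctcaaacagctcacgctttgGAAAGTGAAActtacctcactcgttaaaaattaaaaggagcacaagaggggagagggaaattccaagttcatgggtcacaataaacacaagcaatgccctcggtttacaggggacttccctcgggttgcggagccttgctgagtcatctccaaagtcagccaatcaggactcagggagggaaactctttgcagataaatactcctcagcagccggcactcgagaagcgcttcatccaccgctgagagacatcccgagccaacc

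The first base of the core stood 78, 72 and 66 bases before the start site in Isg15, 120 before it in Rsad2, 156 and 122 before it in Ifit3, and 213 before it in Cxcl10. RefSeq gave 36 promoter sequences for 28 of the 34 genes. The core was present in 10 of these 28 genes (Bst2, Cxcl10, Gbp2, Ifih1, Ifit1, Ifit3, Isg15, Myd88, Rsad2 and Stat2), that is in 27.8% of the 36 sequences against 3.44% of 32851 sequences of the same length. Of the 12 effectors with a sequence, 8 held it. The other genes grouped differently. The kappa B consensus was found in 13 genes, 41.7% of sequences against 8.46% of all, among them 4 of the 5 NF-κB genes with a sequence. Bst2, Cxcl10 and Gbp2 held both the response element core and the kappa B consensus. These are matches of letters on both strands, not measured binding.

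Promoter sequences of 3 inflammatory genes are shown because their promoter calls differ from one another, a choice made after the values were seen. Nlrp3 (chr11:59541319-59541618, plus strand), which encodes the sensor of the NLRP3 inflammasome, was called in WT only for H3K4me3 and H3K27ac. Il6 (chr5:30012864-30013163, plus strand) was called in all 8 libraries, and Il1b (chr2:129371090-129371389, minus strand) in none at either gene end. Capitals mark the kappa B consensus in Nlrp3 and Il6, which begins 186 and 44 bases before the start, and the TATA box (TATAAA) of Il1b, which begins 31 bases before it.
Nlrp3: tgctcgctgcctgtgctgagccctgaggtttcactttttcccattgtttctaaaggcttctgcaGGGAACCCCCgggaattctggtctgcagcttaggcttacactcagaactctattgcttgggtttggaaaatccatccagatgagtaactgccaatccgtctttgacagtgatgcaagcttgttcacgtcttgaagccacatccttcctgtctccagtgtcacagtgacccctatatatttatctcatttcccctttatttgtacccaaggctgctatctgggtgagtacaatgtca
Il6: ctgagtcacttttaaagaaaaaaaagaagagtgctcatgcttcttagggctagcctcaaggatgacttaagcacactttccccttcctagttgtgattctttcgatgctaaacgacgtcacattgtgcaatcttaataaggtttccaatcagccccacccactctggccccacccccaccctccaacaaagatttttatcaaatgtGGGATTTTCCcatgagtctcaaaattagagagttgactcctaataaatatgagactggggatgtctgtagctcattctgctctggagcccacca
Il1b: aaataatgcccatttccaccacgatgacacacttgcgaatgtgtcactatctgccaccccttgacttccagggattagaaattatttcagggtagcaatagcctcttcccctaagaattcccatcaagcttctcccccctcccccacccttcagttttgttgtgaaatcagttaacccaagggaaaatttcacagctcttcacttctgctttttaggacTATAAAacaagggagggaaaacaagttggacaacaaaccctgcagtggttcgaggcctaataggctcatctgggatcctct

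The TATA box was found in 8 of the 28 genes, 22.2% of their sequences against 13.6% of all. Peaks covered the 300 bases of the Il6 sequence in full in 7 libraries, with 256 bases in RXRKO H3K27ac. For Nlrp3, peaks covered all 300 bases in the 4 H3K4me1 libraries and in WT H3K27ac, 290 in WT H3K4me3, and 0 in RXRKO H3K4me3 and RXRKO H3K27ac. For Il1b they covered 0 bases in each of the 8 libraries.

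Whether HSCs already mark the promoters of this response, and whether that depends on the receptors, was read from the promoter windows. Of the 34 genes, 30 had H3K4me3 at a promoter window in both genotypes (65.6% of all genes did), 1 in WT only (0.398%), 0 in RXRKO only (1.46%) and 3 in neither (32.5%). For H3K27ac the counts were also 30 in both (56.2% of all genes), 1 in WT only (4.74%), 0 in RXRKO only (1.32%) and 3 in neither (37.7%). H3K4me1 was called in all 4 libraries at 32 promoters (67.5%). With a minimum fold of 4 per peak, H3K27ac was called in both at 18, in WT only at 6 and in RXRKO only at 1, and H3K4me1 in all 4 libraries at 15. The shares of all genes at this minimum fold are not given here, so these counts have no comparison. A promoter was called in all 8 libraries for 30 of the 34 genes (52.9%), which took in the 4 transcription factors, the 15 effectors, 6 of the 7 NF-κB genes, Tnf and Il6 of the cytokines, and Tlr2, Tlr4 and Myd88. The 4 exceptions were Nfkb2, Il1b, Il1r1 and Nlrp3. At the internal RefSeq start sites of Nfkb2 (chr19, 46304737, 46305695 and 46305930) and Il1r1 (chr1, 40225080 and 40266586), an alternative chosen after seeing the data, all 8 libraries had a peak within 1 kb. With these sites 26 of the 28 genes with an entry were called in all 8 libraries (54.2% of 17274 genes were), and Il1b and Nlrp3 were not.

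The strongest promoter peaks show the level of these marks within each list. The fold is the authors' ratio of a peak's height to the local background. Median folds over whole lists were 3.8 and 3.76 in WT against 3.58 and 3.31 in RXRKO for H3K4me1. They were 6.09 against 5.35 for H3K4me3 and 3.84 against 3.85 for H3K27ac. The lists thus differ in fold for H3K4me1 and H3K4me3, which bears on comparisons of fold and on the minimum fold of 4. Stat2, the signal transducer of type I interferon receptors, had H3K4me3 promoter folds of 11.3 in WT and 11.9 in RXRKO. Ifit1 had 11.6 and 9.31, and Xaf1, an interferon-induced pro-apoptotic factor, had 10.3 and 9.65. The lowest H3K4me3 folds among the called promoters were those of Isg15, 1.94 in WT and 1.38 in RXRKO, where the -log10 q was 11.4 and 2.89.

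**Figure D1:**
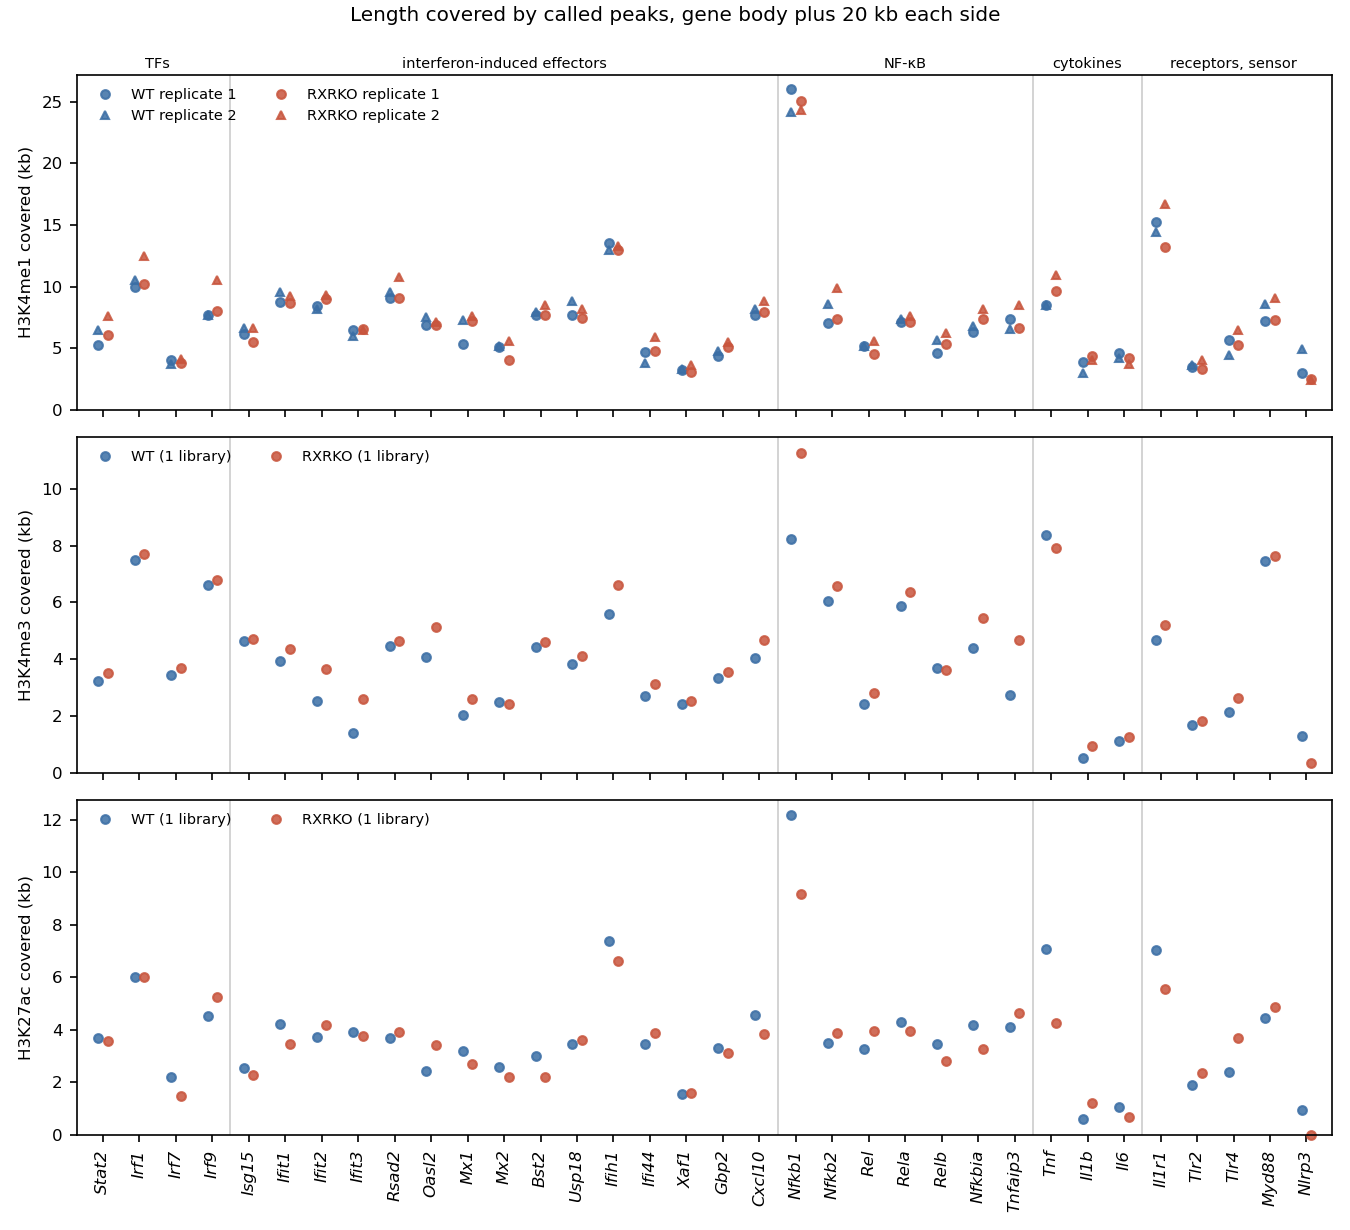
Length covered by called peaks in each gene window (20 kb below to 20 kb above the gene body), in kb, for H3K4me1 (top, 4 libraries), H3K4me3 (middle) and H3K27ac (bottom, 1 library per genotype each). Each point is 1 library and grey lines separate the roles. Nfkb1 held the most H3K4me1 in all 4 libraries, 24167 to 26015 bp, and Nlrp3 had 0 bp of H3K27ac in RXRKO.

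The amount of each mark around a gene was taken as the length covered by peaks in the gene window. The windows of these genes held more of each mark than those of all genes, with a median H3K4me1 length of 6766 bp in WT and 7400 bp in RXRKO, against 5466 and 5732 bp over all genes. For H3K4me3 the medians were 3762 and 4224 bp, against 2880 and 3212 bp. For H3K27ac they were 3488 and 3653 bp, against 2468 and 2256 bp. This did not hold for every role. In WT the medians of the cytokines were 4418, 1117 and 1068 bp for H3K4me1, H3K4me3 and H3K27ac, each below that of all genes. Those of the receptors, adaptors and sensors were 5076, 2133 and 2397 bp, also below. In RXRKO the cytokines were again below for each mark, and the receptors, adaptors and sensors for H3K4me3 only (2620 bp). Windows are longer for longer genes, and 28 of the 34 also hold other genes.

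For H3K4me1, none of the 34 genes passed the test between the genotypes. In limma, on log2 of the length plus 1000 bp with each library centred on its median, 0 of 17763 genes (0.0%) passed at an adjusted p of 0.05, and 1051 (5.92%) passed at an unadjusted p of 0.05. Of the 34, 2 had an unadjusted p under 0.05, Nlrp3 and Tnf, and the lowest adjusted p was 0.575. The count of genes called over the whole table was 93 and 13 on leaving out WT replicate 1 and 2 respectively, 98 and 0 on leaving out RXRKO replicate 1 and 2, and 2 with the replicate number as a block. The labels do not say that replicates came from separate pools, so these p-values measure the spread between libraries only.

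The differences were spread on both sides of 0. RXRKO was above WT in 16 genes and below in 18, with a median log2 difference of −0.01, against 48.2% of all genes above 0 and a median of −0.0044. With no centring, 24 of the 34 and 71.5% of all genes lay above 0, with medians of 0.05 and 0.05. In 32 of the 34 the difference was within 0.2 of 0. Both RXRKO libraries lay above both WT libraries in 8 genes (Stat2, Irf1, Irf9, Rsad2, Ifi44, Gbp2, Nfkbia and Tnf; 15.7% of all genes did). They lay below both in 7 (Isg15, Mx2, Usp18, Xaf1, Rel, Tlr2 and Nlrp3; 17.6% of all genes). With no centring they lay below both in 2, Nlrp3 and Il6, so of the 7 only Nlrp3 did not overlap in base pairs. Of the 8 above, Stat2, Irf1 and Rsad2 overlapped in base pairs, and Irf9, Ifi44, Gbp2, Nfkbia and Tnf did not. Ifit2, Ifit3 and Il1b lay above in base pairs only. With a 50 kb window the counts were 4 above and 3 below.

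**Figure D2:**
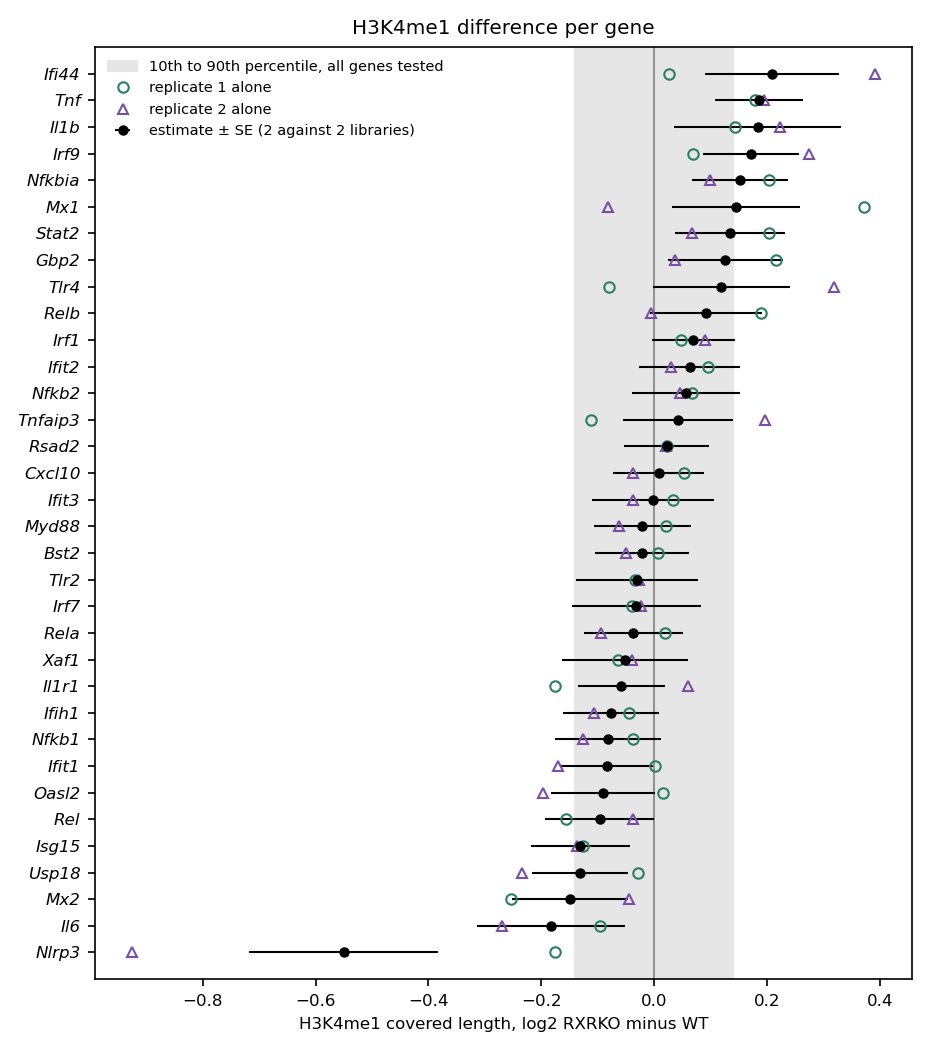
Difference in H3K4me1 covered length per gene, log2 RXRKO minus WT, ordered by size. Black points are estimates with their SE from 2 against 2 libraries, open circles and triangles are the differences within replicate 1 and replicate 2, and the grey band spans the 10th to 90th percentile of all genes tested, −0.14 to 0.14. Nlrp3 at −0.55 lies farthest from 0, and its replicates gave −0.18 and −0.93.

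Among the transcription factors, 3 of 4 lay above 0 in H3K4me1, with a median of 0.10. Irf9, the DNA-binding partner of STAT2, had 7732 and 7678 bp of H3K4me1 in WT replicates 1 and 2, and 8066 and 10514 bp in RXRKO replicates 1 and 2. Its genotypes did not overlap, the log2 difference was 0.17 (SE 0.0848), and the value came mainly from replicate 2, where it was 0.27 against 0.07 in replicate 1 (limma, adjusted p = 0.876). With a minimum fold of 4 per peak it turned to −0.56. Stat2 had 5248 and 6506 bp in WT and, in RXRKO, 6116 and 7626 bp (log2 0.13, SE 0.0977), and was higher in RXRKO within both replicates. Irf1, a factor induced by interferon gamma, had 10002 and 10528 bp in WT and 10254 and 12474 bp in RXRKO. Irf7, the factor that amplifies type I interferon production, had 4023 and 3731 bp in WT and 3837 and 4107 bp in RXRKO, which overlap.

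The other marks of the transcription factors showed small differences. H3K4me3 covered 6630 bp of the Irf9 window in WT and 6777 bp in RXRKO, and H3K27ac 4545 and 5264 bp. At Irf7 H3K27ac covered 2209 bp in WT and 1500 bp in RXRKO (log2 −0.28), the lowest value of this group. An H3K27ac peak inside Irf1 (chr11:53772496-53772882, fold 2.92) was called in WT only, on sequence with H3K4me1 in all 4 libraries and H3K4me3 in both genotypes.

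Among the 15 effectors, 6 lay above 0 and 9 below in H3K4me1, with a median of −0.02 and a range of −0.15 to 0.21. With no centring 9 lay above 0. Ifi44, an interferon-induced protein that limits viral replication, had 4707 and 3835 bp of H3K4me1 in WT, against 4753 and 5958 bp in RXRKO. Its genotypes did not overlap (log2 0.21, SE 0.119, limma, adjusted p = 0.926), and the difference was 0.03 in replicate 1 and 0.39 in replicate 2. With a minimum fold of 4 per peak it turned to −0.12. Mx2, of the dynamin-like GTPases, had 5116 and 5227 bp in WT and, in RXRKO, 4074 and 5623 bp (log2 −0.15, SE 0.102). On the scale centred per library both RXRKO values lay below both WT values, while in base pairs RXRKO replicate 2 was the highest.

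Isg15 and Usp18 act on the same modification, since USP18 removes ISG15 from proteins and also dampens the interferon receptor. Isg15 had 6184 and 6663 bp of H3K4me1 in WT, against 5511 and 6653 bp in RXRKO (log2 −0.13, SE 0.0875). Usp18 had 7729 and 8808 bp in WT and, in RXRKO, 7466 and 8153 bp (log2 −0.13, SE 0.0857). In both genes the RXRKO libraries lay below the WT libraries after centring, and neither passed in limma (adjusted p = 0.959 and 0.952). At Isg15 the 5 kb window turned the sign, to 0.02. Over the windows, H3K4me3 covered 4650 and 4724 bp at Isg15 and 3818 and 4101 bp at Usp18 in WT and RXRKO. H3K27ac covered 2567 and 2287 bp at Isg15 and 3458 and 3615 bp at Usp18. The H3K4me3 peak at the Isg15 promoter had a fold of 1.94 and a -log10 q of 11.4 in WT. In RXRKO these were 1.38 and 2.89. The median fold of the whole H3K4me3 list was 6.09 in WT and 5.35 in RXRKO. This promoter was called in WT only with peaks of -log10 q of at least 5 and with equal peak numbers.

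The Ifit genes encode proteins that bind foreign RNA and lie together on chromosome 19. H3K4me1 covered 8746 and 9531 bp at Ifit1 in WT and 8654 and 9275 bp in RXRKO. It covered 8452 and 8213 bp at Ifit2 in WT and 8994 and 9323 bp in RXRKO, and 6470, 5991, 6560 and 6477 bp at Ifit3 in the same order. The differences of the group were −0.08, 0.06 and −0.0022, so all 3 lay close to 0. In H3K4me3, Ifit3 had 1405 bp in WT and 2584 bp in RXRKO (log2 0.45) and Ifit2 had 2536 and 3653 bp (log2 0.27), among the largest H3K4me3 differences of the 32 genes measured. The windows of Ifit2 and Ifit3 meet and share regions, so these values are not independent. Inside Ifit2, an H3K4me3 peak at chr19:34553152-34553700 was called in RXRKO only (fold 2.89, -log10 q 22.9), where all 4 H3K4me1 libraries and both H3K27ac libraries also had a peak. A second RXRKO-only H3K4me3 peak lay 9479 bp from Ifit3 (chr19:34598461-34598794, fold 4.17), again with H3K4me1 and H3K27ac called in every library.

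Ifih1, which encodes the RNA sensor MDA5, had the most H3K27ac of the effectors, 7392 bp in WT and 6628 bp in RXRKO. Its H3K4me1 covered 13533 and 13007 bp in WT and 12933 and 13271 bp in RXRKO, which overlap. Within Ifih1 a distal H3K27ac peak at chr2:62606168-62606601 (fold 4.35) was called in WT only, and H3K4me3 was called there in WT only as well. H3K4me1 was called there in all 4 libraries, with peaks of 939 and 853 bp in WT against 423 and 246 bp in RXRKO. Xaf1 was at the other end, with 1572 and 1600 bp of H3K27ac and 3286, 3336, 3058 and 3628 bp of H3K4me1 in WT replicates 1 and 2 and RXRKO replicates 1 and 2.

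The remaining effectors gave small differences. Rsad2, Oasl2, Mx1, Bst2, Gbp2 and Cxcl10 ranged from −0.09 (Oasl2) to 0.15 (Mx1) in H3K4me1. At Cxcl10, H3K27ac covered 4559 bp in WT and 3843 bp in RXRKO, and a peak 5704 bp from the gene (chr5:92340636-92340934, fold 5.22) was called in WT only while H3K4me1 was called there in all 4 libraries. Near Bst2, which encodes tetherin, 2 H3K27ac peaks were called in WT only, at chr8:71542679-71543185 (fold 4.60, -log10 q 14.4) and chr8:71521636-71521990 (fold 5.03). H3K4me1 was called in all 4 libraries and H3K4me3 in both genotypes at each of these. The first of them overlaps a neighbouring gene end, 5207 bp from Bst2. At Oasl2 H3K27ac covered 2431 bp in WT and 3413 bp in RXRKO (log2 0.44), and no distal H3K27ac region was called there in either genotype.

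Among the NF-κB genes, 4 of 7 lay above 0 in H3K4me1, with a median of 0.04. Nfkb1, which encodes a DNA-binding subunit made from a longer precursor, had the most H3K4me1 of the 34. H3K4me1 covered 26015 and 24167 bp of it in WT and 25043 and 24293 bp in RXRKO, which overlap. H3K4me3 covered 8247 bp in WT and 11289 bp in RXRKO (log2 0.29), whereas H3K27ac covered 12162 bp in WT and 9186 bp in RXRKO (log2 −0.29), so these marks stood on opposite sides. Of its 18 distal H3K27ac regions, 11 were called in both genotypes, 7 in WT only and 0 in RXRKO only. Inside the gene, an H3K4me3 peak at chr3:135670714-135671051 was called in RXRKO only (fold 4.30), with H3K4me1 and H3K27ac called there in every library. An H3K4me1 region at chr3:135633753-135634151 was called in both RXRKO libraries (folds 1.69 and 2.09) and in neither WT library.

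The feedback inhibitors Nfkbia and Tnfaip3 are themselves NF-κB targets. Nfkbia had 6343 and 6810 bp of H3K4me1 in WT, against 7370 and 8182 bp in RXRKO. The genotypes did not overlap, and the difference was 0.15 (SE 0.0852, limma, adjusted p = 0.923), with 0.20 in replicate 1 and 0.10 in replicate 2. Its H3K27ac stood the other way, at 4191 bp in WT and 3290 bp in RXRKO (log2 −0.19). Tnfaip3, which encodes the ubiquitin-editing enzyme A20, had 2723 bp of H3K4me3 in WT, against 4686 bp in RXRKO (log2 0.49), the largest H3K4me3 difference of the 32 genes with a mean length of at least 1000 bp, which leave out Nlrp3 and Il1b. Its H3K4me1 covered 7367 and 6546 bp in WT and 6662 and 8483 bp in RXRKO, which overlap.

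Nfkb2, whose precursor is processed in non-canonical NF-κB signalling, had 7073 and 8622 bp of H3K4me1 in WT, against 7366 and 9894 bp in RXRKO. Rel had 5206 and 5182 bp in WT and, in RXRKO, 4508 and 5613 bp (log2 −0.10), and Rela and Relb stood at −0.04 and 0.09. H3K4me3 in RXRKO only was called inside Nfkb2 (chr19:46308978-46309196, fold 1.95), where no H3K27ac was called. It was also called inside Rel (chr11:23754370-23754824, fold 5.08), where H3K27ac was called in both genotypes. At both sites H3K4me1 was called in all 4 libraries.

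The cytokine genes carried the least H3K4me3 and H3K27ac of the roles in WT, with medians of 1117 and 1068 bp. Tnf is the exception among them. Its window, which also holds the related genes Lta and Ltb, had 8509 and 8526 bp of H3K4me1 in WT, against 9649 and 10959 bp in RXRKO. Both RXRKO libraries were higher, with a log2 difference of 0.19 (SE 0.0780) that was 0.18 and 0.19 in the replicates, an unadjusted p of 0.0372 and an adjusted p of 0.805 in limma. With the 5 kb window the difference was −0.02, and with a minimum fold of 4 per peak it was −0.37.

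H3K27ac in the Tnf window stood the other way from H3K4me1. It covered 7064 bp in WT and 4254 bp in RXRKO (log2 −0.54), the lowest value of the 31 genes with a mean H3K27ac length of at least 1000 bp, which leave out Nlrp3, Il6 and Il1b, while H3K4me3 covered 8364 and 7910 bp. An element 7497 bp from Tnf lay nearer to the end of another gene, at 3926 bp. It had an H3K27ac peak (chr17:35209504-35210439, fold 4.21) and an H3K4me3 peak (chr17:35210061-35210466, fold 5.47) in WT and neither in RXRKO. H3K4me1 was called there in all 4 libraries, with peaks of 1341 and 1468 bp in WT and 1277 and 1550 bp in RXRKO. Of the 5 distal H3K27ac regions of the Tnf window, 3 were called in WT only and 2 in both genotypes. At the Tnf promoter H3K27ac was called in both genotypes, with folds of 3.15 and 2.76, and the RXRKO peak had a -log10 q of 2.92.

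Il6 had 4593 and 4243 bp of H3K4me1 in WT, against 4178 and 3771 bp in RXRKO (log2 −0.18, SE 0.131, limma, adjusted p = 0.970). The values overlapped after centring, and the sign turned with peaks of -log10 q of at least 5, to 0.03, and of a fold of at least 4, to 0.07. Its H3K4me3 covered 1117 bp in WT and 1262 bp in RXRKO in 1 peak each, and its H3K27ac 1068 and 672 bp. The promoter peak itself was strong in both genotypes, with H3K4me3 folds of 9.07 and 9.32 and H3K27ac folds of 6.35 and 5.96.

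Il1b, the gene for interleukin 1 beta, had no peak within 1 kb of either gene end in any library but carried all 3 marks just upstream. Within 1 kb of its RefSeq start site, RXRKO H3K4me1 replicate 2 had a peak and the other 7 libraries had none. An element was called in all 8 libraries, and the near edges of its peaks lay 1708 to 2100 bp upstream of the RefSeq start site (129371139 on chromosome 2). In WT it spanned chr2:129373033-129373883 and chr2:129372876-129373864 for H3K4me1, chr2:129373239-129373760 for H3K4me3 and chr2:129373233-129373847 for H3K27ac. The H3K4me1 peaks spanned 851 and 989 bp in WT and 918 and 1085 bp in RXRKO, which overlap, with RXRKO longer within each replicate number. RXRKO peaks spanned 636 against 522 bp for H3K4me3 and 924 against 615 bp for H3K27ac. The folds stood lower in RXRKO for H3K4me1 (5.55 and 6.34 against 7.63 and 8.99) and higher for H3K4me3 (7.29 against 5.08) and H3K27ac (8.15 against 7.64). The whole lists also had lower median folds in RXRKO for H3K4me1 (3.58 and 3.31 against 3.8 and 3.76). For H3K4me3 the list medians were 5.35 in RXRKO and 6.09 in WT, and for H3K27ac 3.85 and 3.84.

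Over the whole Il1b window, H3K4me1 covered 3892 and 2978 bp in WT, against 4344 and 4096 bp in RXRKO. The genotypes did not overlap in base pairs but did so after centring, with a log2 difference of 0.18 (SE 0.148, limma, adjusted p = 0.989) that was −0.0013 without WT replicate 2. H3K4me3 covered 522 and 940 bp and H3K27ac 615 and 1226 bp in WT and RXRKO. Both means were under the 1000 bp required for a log2 difference. A short H3K4me1 region inside the gene, chr2:129369542-129370149, was called in both RXRKO libraries (folds 2.58 and 2.15) and in no WT library.

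Among the receptors, adaptors and sensors, 1 of 5 lay above 0 in H3K4me1 and 4 of 5 did so with no centring. Nlrp3 (chr11:59541569-59566955) was the only gene of the 34 whose promoter was called in 1 genotype only for H3K4me3 or H3K27ac in the lists as deposited. In WT its promoter had H3K4me3 peaks at chr11:59541329-59541972 (fold 4.54, -log10 q 8.46) and chr11:59542457-59542829, and an H3K27ac peak at chr11:59541070-59542026 (fold 3.57, -log10 q 7.46). In RXRKO neither mark was called there. The nearest RXRKO H3K4me3 peak, chr11:59538442-59538770, lay 2799 bp outside the gene. Both marks in WT and neither in RXRKO was the pattern of 20 promoters among all genes (0.0924%), and the reverse pattern of 25 (0.116%), with 0 of the 34. Nlrp3 remained called in WT only for H3K4me3 under every alternative tried, and for H3K27ac under each but the minimum fold of 4, which its WT peak did not reach.

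H3K4me1 at the Nlrp3 promoter was called in all 4 libraries but was narrower in RXRKO. The peaks spanned 1059 bp (chr11:59541058-59542116) and 2153 bp (chr11:59540720-59542872) in WT replicates 1 and 2. They spanned 737 bp (chr11:59541195-59541931) and 722 bp (chr11:59541181-59541902) in RXRKO replicates 1 and 2. Both RXRKO peaks were thus shorter than both WT peaks.

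Over the whole Nlrp3 window, H3K4me1 covered 3027 and 4969 bp in WT and 2527 and 2450 bp in RXRKO. The genotypes did not overlap, and the 2 WT libraries lay far apart. The log2 difference was −0.55 (SE 0.167), the largest of the 34, with an unadjusted p of 0.00777 and an adjusted p of 0.575 in limma. It was −0.18 within replicate 1 and −0.93 within replicate 2, and the adjusted p was 0.349 with the replicate block. Leaving out WT replicate 1 gave −0.80 with an adjusted p of 0.0307, and leaving out WT replicate 2 gave −0.30 with 0.9997, so WT replicate 2 set most of the size. With no filter on covered length the adjusted p was 0.0389. H3K4me3 covered 1285 bp in WT and 329 bp in RXRKO, and H3K27ac 957 and 0 bp.

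Markers of granulocytes and monocytes, cells in which NLRP3 is active, also lay below 0 in H3K4me1 after centring, 8 of 8 tested, with a median of −0.07. With no centring 4 of the 8 lay above 0 and the median was −0.0075. None had an unadjusted p under 0.05 in limma (0 of 8), and both RXRKO libraries lay below both WT libraries in 3 (17.6% of all genes). Their summed H3K27ac length was 20.9 kb in WT and 16.4 kb in RXRKO, and their summed H3K4me3 length 15.6 and 21.1 kb. H3K27ac was called in WT only at 2 of 9 of these promoters (Mpo and Cx3cr1; 4.74% of all genes), in both at 2 (56.2%) and in neither at 5 (37.7%). Ly6g had 0 bp in every library and S100a8 had no H3K4me3 or H3K27ac. Their part in the Nlrp3 difference was not tested.

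**Figure D3:**
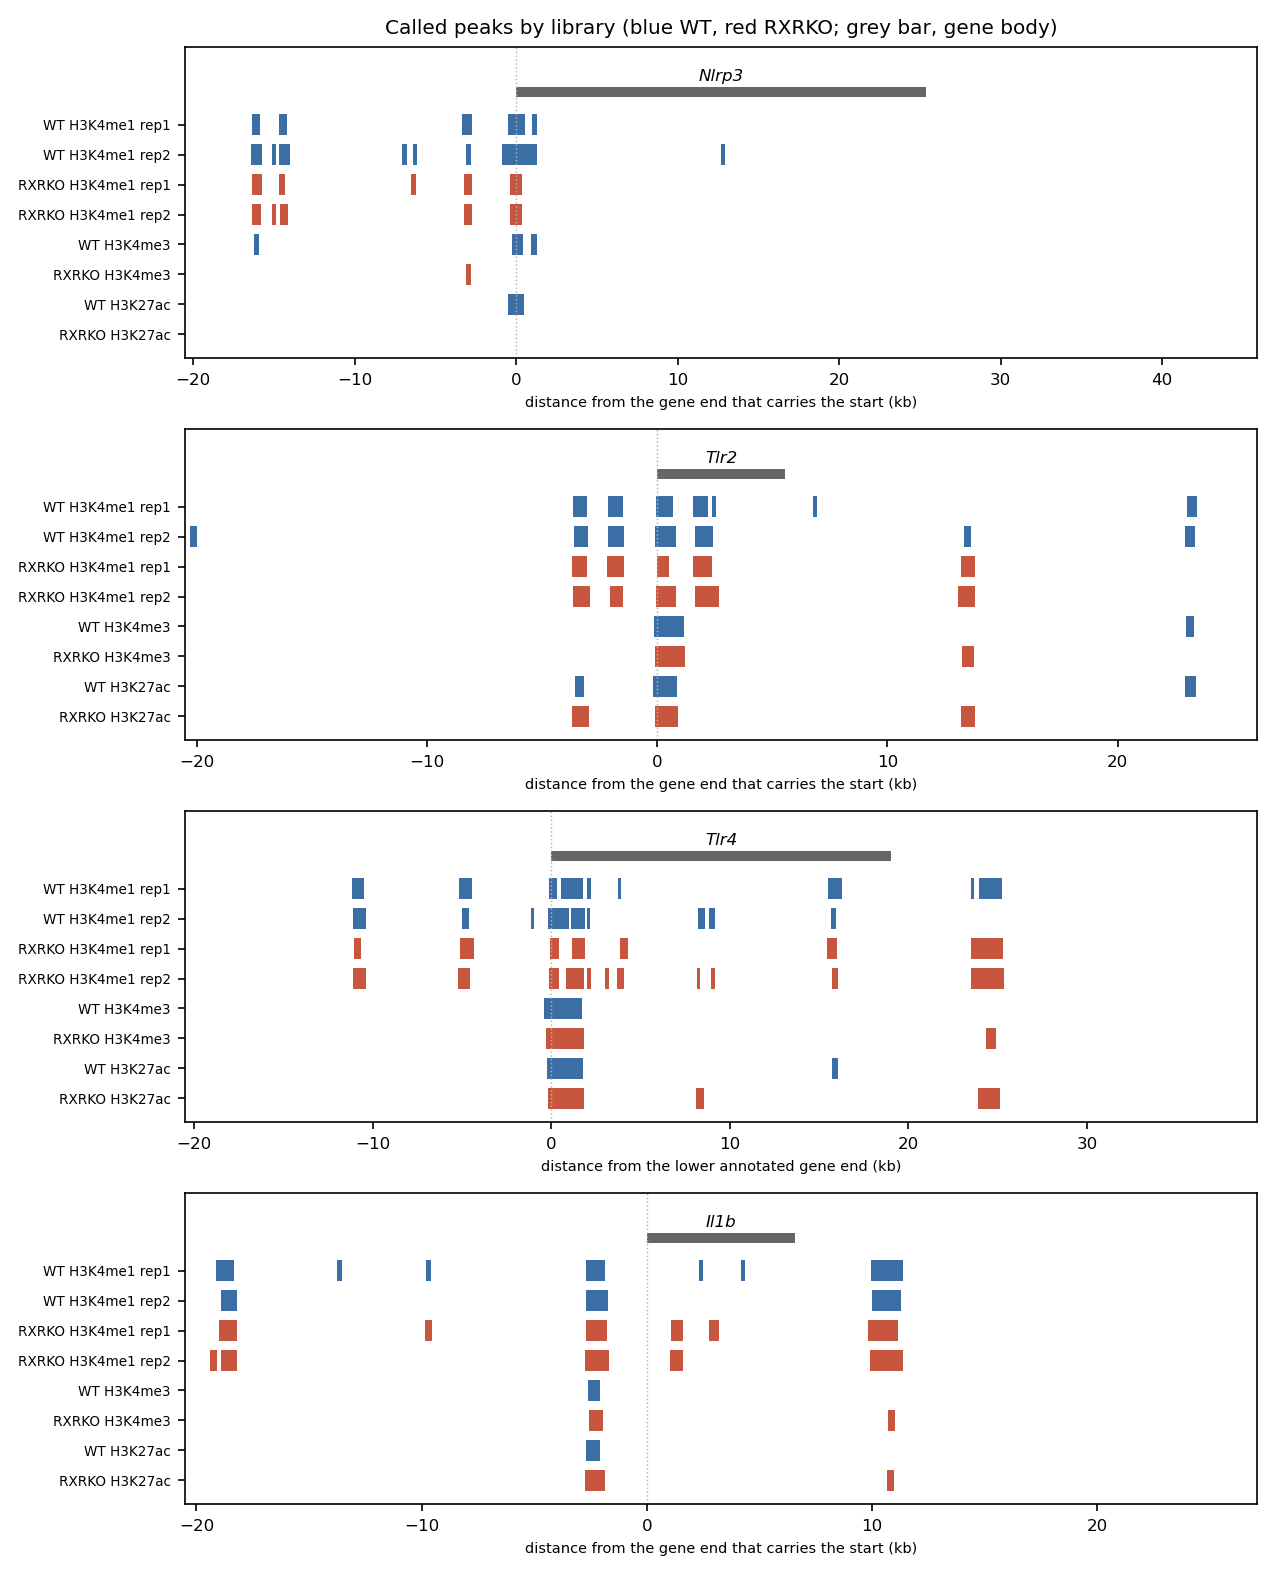
Called peaks by library around Nlrp3, Tlr2, Tlr4 and Il1b, with distance in kb from the gene end named under each axis. Each bar is 1 peak (blue WT, red RXRKO) and the grey bar is the gene body. At the Nlrp3 promoter H3K4me3 and H3K27ac have WT peaks only, at Tlr2 and Tlr4 the elements described in the text lie beyond the gene, and at Il1b the upstream element is called in all 8 libraries.

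Tlr2 (chr3:83836272-83841824), a receptor for bacterial lipoproteins, had H3K4me1 lengths that overlapped in base pairs, 3472 and 3663 bp in WT and, in RXRKO, 3323 and 4022 bp (log2 −0.03, SE 0.108, both RXRKO libraries lower after centring). Its promoter was called in all 8 libraries, with H3K4me3 folds of 10.3 and 9.58. The elements beyond its 3′ end differed. At chr3:83818393-83818905, 17368 bp from the gene, all 4 WT libraries called a peak, with folds of 4.08 and 3.82 for H3K4me1, 3.52 for H3K4me3 and 4.16 for H3K27ac, and no RXRKO library did. This was 1 of 16 such regions among 176492 in the genome (0.00907%). The reverse pattern held at 36 (0.0204%), of which 0 lay in the windows of the 34 genes.

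A second Tlr2 element, 7630 bp from the gene, stood the other way. At chr3:83828018-83828642 RXRKO had an H3K27ac peak (fold 5.97, -log10 q 13.7) and an H3K4me3 peak (fold 3.77), and WT had neither. H3K4me1 was called there in both RXRKO libraries over 606 and 725 bp, in WT replicate 2 over 283 bp and not in WT replicate 1. The total H3K27ac of the window was 1891 bp in WT and 2356 bp in RXRKO (log2 0.30).

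Tlr4 (chr4:66827551-66846581), the receptor for bacterial lipopolysaccharide, had the highest H3K27ac difference of the 31 genes measured, with 2397 bp in WT and 3691 bp in RXRKO (log2 0.55). An element 4899 bp from the gene held 1212 bp of the RXRKO length. RXRKO had an H3K27ac peak there (chr4:66851480-66852691, fold 5.17, -log10 q 15.2) and an H3K4me3 peak (chr4:66851926-66852451, fold 5.73, -log10 q 18.9), and WT had neither. H3K4me1 was called there over 1804 and 1868 bp in RXRKO and over 1284 bp in WT replicate 1, but WT replicate 2 had no peak over this stretch. H3K4me1 over the window was 5680 and 4471 bp in WT and 5251 and 6485 bp in RXRKO, which overlap, and its difference was −0.08 in replicate 1 and 0.32 in replicate 2.

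Il1r1, the receptor for interleukin 1, had 15268 and 14467 bp of H3K4me1 in WT, against 13244 and 16687 bp in RXRKO, so that both extremes were RXRKO libraries. Its H3K27ac covered 7031 bp in WT and 5542 bp in RXRKO (log2 −0.22). An H3K4me3 peak inside the gene (chr1:40284205-40284858, fold 3.90) was called in RXRKO only, with H3K4me1 and H3K27ac called in every library. Myd88, the adaptor shared by these receptors, had 7253 and 8567 bp of H3K4me1 in WT, against 7281 and 9057 bp in RXRKO (log2 −0.02). A WT-only H3K27ac peak near Myd88 (chr9:119357397-119357893, fold 4.99) lay 17379 bp away at the end of another gene, where the other marks were called in both genotypes.

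Over the 34 genes, covered lengths of H3K4me3 and H3K27ac were compared where the mean length was at least 1000 bp. They differed by less than a log2 of 1 in every such gene. For H3K4me3 this was 0 of 32 higher (0.0901% of 16652 genes) and 0 of 32 lower (0.024%), with a median of −0.03 and 13 above 0, against a median of −0.04 and 39.5% above 0 over all genes. With no centring 29 of 32 and 78.9% of all genes lay above 0. For H3K27ac it was 0 of 31 higher (0.227% of 15451) and 0 of 31 lower (0.246%), with a median of 0.03 and 17 above 0, against 51.5% of all genes. With no centring 13 of 31 and 36.4% of all genes lay above 0. Past 0.5 in H3K27ac were Tlr4, higher (2.13% of all genes), and Tnf, lower (3.07%), and past 0.5 in H3K4me3 there was 0 higher (1.92%) and 0 lower (0.18%). These counts leave out, as too short, Nlrp3 and Il1b for both marks and Il6 for H3K27ac. At Nlrp3, H3K4me3 covered 1285 bp in WT and 329 bp in RXRKO, and H3K27ac 957 and 0 bp.

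Distal elements, the H3K27ac regions more than 1 kb from either end of any gene, numbered 120 in the windows of the 34 genes. Both genotypes called 72 (60.0%, against 59.2% of all distal regions), WT only 36 (30.0%, against 26.1%) and RXRKO only 12 (10.0%, against 14.7%). These shares are near those of the whole genome. With a minimum fold of 4 per peak, 16 were WT only and 13 RXRKO only, of 57. The shares of the whole genome at this minimum fold are not given here. WT-only regions had a median -log10 q of 5.18 and regions called in both 11.9. For regions called in both, the higher of the WT and RXRKO values was taken, so these medians are not like for like. Of the 36 WT-only regions 28 had H3K4me1 in all 4 libraries, as did 7 of the 12 RXRKO-only regions and 68 of the 72 called in both. The same shares over all distal regions are not given here, so these counts cannot be read as particular to these genes.

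By role, WT-only and RXRKO-only distal H3K27ac regions numbered 4 and 1 of 11 at the transcription factors, 13 and 6 of 48 at the effectors, 10 and 1 of 35 at the NF-κB genes, 4 and 1 of 8 at the cytokines, and 5 and 3 of 18 at the receptors, adaptors and sensors. Of the 10 WT-only regions at the NF-κB genes, 7 lay in the Nfkb1 window. A WT-only region lay in the windows of 21 genes and an RXRKO-only region in those of 11. The share of all genes with such a region is not given here. Across the genome WT-only regions also outnumbered RXRKO-only regions, with 17631 (26.1%) against 9915 (14.7%) of 67495 distal regions. Oasl2, Xaf1 and Nlrp3 had no distal region in either genotype.

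**Figure D4:**
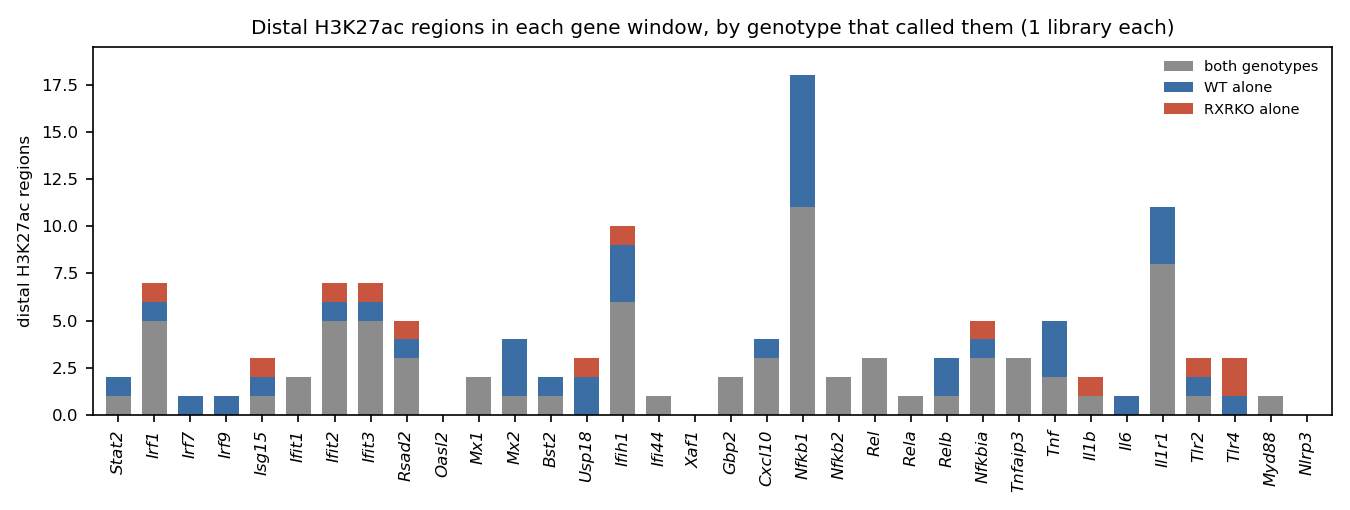
Number of distal H3K27ac regions in each gene window, stacked by the genotype that called them (grey both, blue WT only, red RXRKO only, 1 library per genotype). Nfkb1 has the most, 11 in both genotypes and 7 in WT only, and Tlr4 has 2 in RXRKO only, 1 in WT only and 0 in both.

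Most H3K4me1 regions were found in every library. Of 379 regions in the windows, all 4 libraries called 253 (66.8%, against 61.8% of all regions). In 2 regions both WT libraries had a peak and the RXRKO libraries had none (0.528%, against 1.94%), at Tlr2 and, with folds of 1.72 and 1.82, at Usp18 (chr6:121248790-121249063). In 4 regions this was reversed (1.06%, against 2.17%), at Nfkb1, Il1b, Stat2 (chr10:128265024-128265439, folds 3.35 and 2.28) and Rsad2 (chr12:26453761-26454093, folds 1.77 and 1.7). With any 1 library left out the counts were 14 to 20 for WT only and 11 to 24 for RXRKO only. For H3K4me3, 111 of 148 regions were called in both genotypes (75.0%, against 73.6%), 29 in RXRKO only (19.6%, against 22.2%) and 8 in WT only (5.41%, against 4.22%).

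The other genes of these pathways, 101 genes for further receptors, kinases, adaptors, effectors and cytokines, were also mostly marked in both genotypes. Of these, 93 had H3K4me3 at the promoter in both (65.6% of all genes), 1 in WT only (Tlr1, a partner of TLR2; 0.398%), 1 in RXRKO only (Ccl2, a monocyte chemokine; 1.46%) and 6 in neither (32.5%). H3K27ac was called in both at 92 (56.2%), in WT only at 3 (Nlrc4, Cxcl1 and Ccl2, 4.74%), in RXRKO only at 0 (1.32%) and in neither at 6 (37.7%). In H3K4me1, 56 lay above 0 and 45 below, with a median of 0.01, and with no centring 81 lay above 0. In limma 0 passed over all genes tested while 5 had an unadjusted p under 0.05 (5.92% of all genes). The genotypes did not overlap in 23 genes with RXRKO higher (15.7% of all genes) and 13 with RXRKO lower (17.6%).

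The lowest H3K4me1 differences among them were at Il1a, Cyld and Zbp1. Il1a, the neighbour of Il1b that encodes interleukin 1 alpha, had 3685 and 3668 bp in WT and, in RXRKO, 2454 and 1930 bp (log2 −0.62, SE 0.156, limma, adjusted p = 0.431). Its genotypes did not overlap. Cyld, a deubiquitinase that restrains NF-κB, stood at −0.30 and Zbp1, a nucleic acid sensor, at −0.21. The highest were Gbp3 (0.31, with 3355 and 2915 bp in WT and 3882 and 4862 bp in RXRKO), the inflammasome adaptor Pycard (0.22) and Il1rap, a co-receptor for interleukin 1 (0.18). The list's lowest adjusted p was that of Il1a.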

How the data were processed

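CUT&RUN peak lists of 8 libraries from sorted HSCs were used, 1 list per library. The tools named per the submitters' processing notes are cutadapt 1.7.1 for trimming, Bowtie2 2.2.5 for alignment (build mm10) and MACS3 for peaks. For MACS3, the version, a control, spike-in and duplicates: not given in the sources used here. Deposited lists give each peak's position, a score, a fold (the ratio of peak height to local background), and −log10 p and −log10 q values, all made by the authors' peak caller. Fold and q describe or rank peaks within 1 list, and a fold or length here is no count of reads.

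Gene positions and promoter sequences came from RefSeq (GRCm38.p6, the coordinates of mm10), with 21634 genes on 20 chromosomes, namely protein-coding genes and the listed pseudogenes. Covered length in gene body plus 20 kb was taken as log2 of bp plus 1000, centred per library. Genes with a mean of at least 1000 bp were tested for H3K4me1 in limma 3.58.1 (R 4.3.3, lmFit, eBayes with trend) without a block, with Benjamini-Hochberg adjustment over all genes, and the script was tested on simulated data. The replicate number marks a run that holds both genotypes. Replicate 2 minus replicate 1 had r = 0.211 between WT and RXRKO over 17763 genes, which are not independent. A promoter was called where at least 1 bp of a peak fell within 1 kb of either gene end. Regions are merged overlapping peaks.

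The genes, lists and tests were chosen with earlier results of these data known. Values are given for the 4 highest and 4 lowest H3K4me1 differences, differences over 0.2 whose genotypes do not overlap, promoters called in 1 genotype or in neither, the 4 largest and 4 smallest H3K27ac lengths, and the 8 regions per mark called in 1 genotype with the highest −log10 q. Values of further genes were added after they were seen, to cover each role. Of the other pathway genes, the 3 highest and 3 lowest differences and promoters called in 1 genotype are named. Alternatives were stricter peaks, equal peak numbers, other windows, no centring, another pseudocount, no filter, left-out libraries and the replicate block.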

Additional observations from a re-analysis of the deposited data

How the results depend on the processing

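The count of genes called in H3K4me1 moved from 0 to 2 with peaks of −log10 q of at least 5, 65 with no centring, 204 with no filter on covered length, 2 with the replicate block, and 0 to 98 with 1 library left out. The replicate block changed no other call. Of the 34 genes, 1 (Nlrp3) was called with no filter and 0 to 1 with 1 library left out. With no centring the median difference of the 34 was 0.0478 for H3K4me1, 0.0959 for H3K4me3 and −0.0489 for H3K27ac. Genes with both RXRKO libraries lower numbered 4 at −log10 q of at least 5, 3 with a 50 kb window and 2 with no centring, and genes with both higher 5 with a 5 kb window and 4 with a 50 kb window. Signs turned for Il6 (0.028 at −log10 q of at least 5, 0.0699 at a fold of at least 4), Ifi44 (−0.12), Tnf (−0.37) and Irf9 (−0.56) at a fold of at least 4, Tnf (−0.0216) and Isg15 (0.0152) with a 5 kb window, and Il1b, which ranged from −0.0013 (without WT replicate 2) to 0.3671 with 1 library left out. Their causes were not tested. H3K4me3 promoters called in WT only numbered 2 at −log10 q of at least 5 (Isg15, Nlrp3), at a fold of at least 4 (Nfkbia, Nlrp3) and with equal peak numbers (Isg15, Nlrp3), and with 2 kb windows 1, Il1b, was RXRKO only in H3K4me3 and in H3K27ac. These Il1b peaks, called in both genotypes, began 2075 and 2069 bp beyond the gene end in WT and 1926 and 1843 bp beyond it in RXRKO. H3K27ac promoters in WT only numbered 3 at −log10 q of at least 5 (Cxcl10, Nlrp3, Tnf). At a fold of at least 4, 18 were called in both, 6 in WT only and 1 in RXRKO only, and 15 promoters had H3K4me1 in all 4 libraries. For promoter and region counts under the alternatives, the shares of all genes or regions are not given here. H3K4me1 regions in WT only numbered 1 at −log10 q of at least 5 and 13 at a fold of at least 4, and 14 to 20 with 1 library left out. In RXRKO only they numbered 1 at a fold of at least 4 and 11 to 24 with 1 library left out. Distal H3K27ac regions in RXRKO only numbered 7 at −log10 q of at least 5, and in WT only 16 at a fold of at least 4. Of the other alternative values of these results, 104 kept their side of the threshold or stayed within 1.5 times the count, and 107 of 117 values of single genes kept direction and call. A peak under the authors' threshold counts as absent, so an uncalled site need not lack the mark, and the depth that sets this is unknown.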
